A study of Mus musculus with 24 samples.

Results

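The 4 Hox gene clusters of the mouse were examined in chromatin immunoprecipitation sequencing (ChIP-seq) peak lists of bone marrow-derived macrophages (BMDMs), obtained by culturing marrow cells. The members were chosen by position alone, as every peak that overlapped 1 of 4 windows of the mm9 build by at least 1 bp. These were chromosome 6 from 52090000 to 52230000 for HoxA, chromosome 11 from 96040000 to 96240000 for HoxB, chromosome 15 from 102740000 to 102880000 for HoxC, and chromosome 2 from 74480000 to 74620000 for HoxD. Together the windows span 620 kb and are the home of 38 named Hox genes. They held 287 of the 756484 peaks of the series (0.0379%), with 130 in HoxA, 87 in HoxB, 33 in HoxC and 37 in HoxD.

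The cells came from FVB/Hsd mice and were used on day 7, and all of them, controls included, had been infected with a retrovirus and selected with puromycin. The virus delivered a single hairpin that targets Wdr82 (shWdr82) or a control. The control was the empty vector (LMP) in the H3K4me3 and H3K27ac libraries. It was a scrambled hairpin in those of H3K4me1, of H3K36me3, of RNA polymerase II as a whole (total Pol II), and of its form with phosphate on serine 2 (Ser2P). Cells of each kind were untreated or received 10 ng/ml of lipopolysaccharide (LPS), a bacterial molecule sensed by macrophages, for 4 h in the first pair of antibodies and 45 min in the other 4 according to the sample titles, although the protocol text names 4 h alone. Each of the 24 groups had 1 library, so no difference has a replicate check and no test was run. Read depth and the level of Wdr82 itself were not analysed here. The lists held 14420 to 65149 peaks each, and the values set side by side come from the 4 libraries of 1 antibody. Macrophage markers were not placed either, because the gene table at hand is on the GRCm38 build, and for the same reason no mm9 position was assigned to a single Hox gene, exon or intron.

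Hox genes encode homeodomain transcription factors that give cells their position along the body axis. Their order along a cluster follows the order in which they are used, and in blood formation HoxA and HoxB genes are known for their activity in stem and progenitor cells. WDR82 is a subunit of the SET1 complexes, which place H3K4me3 at promoters and reach CpG-rich DNA through the CpG-binding subunit CFP1, and it also acts with the PNUTS phosphatase on Pol II. In silent clusters, Polycomb complexes are known to hold CpG-rich Hox promoters. Their mark, H3K27me3, was not among the antibodies. In the RefSeq order, chromosome 6 runs from Hoxa2 to Hoxa13 with the matched genes on the minus strand. Chromosomes 11, 15 and 2 run from Hoxb13 to Hoxb1, Hoxc13 to Hoxc4 and Hoxd13 to Hoxd1, with the matched genes on the plus strand.

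RefSeq promoter windows (GRCm38.p6, 250 bases before to 50 after the gene start) were matched for 22 of the 38 genes, 24 windows in all. They held a median of 14.5 CpG pairs, against 7.0 over all 32851 windows. Of the 24, 11 (45.8%) had at least 50% GC and an observed to expected CpG ratio of at least 0.6, against 33.5% of all windows. These were 6 of 10 in HoxA, 5 of 10 in HoxD, 0 of 3 in HoxB and 0 of 1 in HoxC. The count ran from 4 pairs, at Hoxa9 among others, to 45 at Hoxa13. The windows with the most CpG pairs in the 3 clusters with more than 1 matched window are shown for the base composition behind the promoter marks. Only the 250 bases before the start are given, 5′ to 3′ along the gene, with each CG in capitals, and no peak was tied to them.
Hoxa13 (GRCm38.p6, chr6:52260881-52261130, minus strand, 35 CpG pairs): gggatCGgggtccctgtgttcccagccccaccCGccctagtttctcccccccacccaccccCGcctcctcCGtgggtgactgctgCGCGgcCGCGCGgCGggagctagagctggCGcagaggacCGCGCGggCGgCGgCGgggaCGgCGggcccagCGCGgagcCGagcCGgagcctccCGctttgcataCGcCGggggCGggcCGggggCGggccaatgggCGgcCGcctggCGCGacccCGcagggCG
Hoxb4 (GRCm38.p6, chr11:96318017-96318266, plus strand, 14 CpG pairs): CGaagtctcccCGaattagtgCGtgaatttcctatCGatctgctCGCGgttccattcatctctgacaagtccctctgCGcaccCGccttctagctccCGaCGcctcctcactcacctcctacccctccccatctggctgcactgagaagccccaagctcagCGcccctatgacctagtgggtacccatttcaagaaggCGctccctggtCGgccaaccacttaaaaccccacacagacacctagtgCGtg
Hoxd13 (GRCm38.p6, chr2:74667975-74668224, plus strand, 31 CpG pairs): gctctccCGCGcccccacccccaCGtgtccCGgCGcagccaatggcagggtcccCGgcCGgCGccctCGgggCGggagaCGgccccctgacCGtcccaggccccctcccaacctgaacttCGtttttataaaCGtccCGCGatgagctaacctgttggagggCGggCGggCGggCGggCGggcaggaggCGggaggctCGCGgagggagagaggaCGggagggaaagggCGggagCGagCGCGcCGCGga

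H3K4me3, the mark of promoters with CpG-rich DNA or active transcription, was called in all 4 clusters. There were 113 H3K4me3 peaks in the 4 libraries, 48 in HoxA, 32 in HoxB, 9 in HoxC and 24 in HoxD. They covered 8.79% to 10.2% of the HoxA window, 4.46% to 5.32% of HoxB, 1.02% to 1.72% of HoxC and 1.84% to 4.64% of HoxD. After merging of overlapping peaks they formed 34 regions, of which 14 lay in HoxA, 10 in HoxB, 3 in HoxC and 7 in HoxD. Of these, 20 were held by all 4 libraries, while genome-wide 71.4% of 21626 merged H3K4me3 regions were. The score is the authors' value from the peak caller and serves here to describe and rank peaks. Scores of the 4 libraries stand side by side as a description, and a difference between them is not read as a change in the mark. It starts at 50 and has a ceiling that many peaks share, at 3100 for the strongest Hox peaks. The other 14 regions, called in 1 to 3 libraries, had a highest score of at most 208.

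The strongest sites lay in HoxA and HoxB. In HoxA the regions at chromosome 6, 52107341 to 52110389, and 52140817 to 52142726, stood at the ceiling of 3100 in all libraries but 1, the second having 2967 in empty vector LPS cells. Peaks at the first spanned 3049, 2299, 2449 and 2124 bp in empty vector untreated, shWdr82 untreated, empty vector LPS and shWdr82 LPS cells. HoxA regions of middle strength were 52166717 to 52168237, with scores of 144, 768, 259 and 694 in that order, and 52209817 to 52211412, with 161, 722, 547 and 473. In HoxB the region at chromosome 11, 96178902 to 96181856, had 3100 in all 4 libraries over 2703, 2636, 2955 and 2699 bp. On its low-coordinate side followed 96175459 to 96177168, with scores of 1908, 1046, 1597 and 931, and 96172203 to 96173821, with 1006, 515, 521 and 893. All of these regions were called in each of the 4 libraries.

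**Figure D1:**
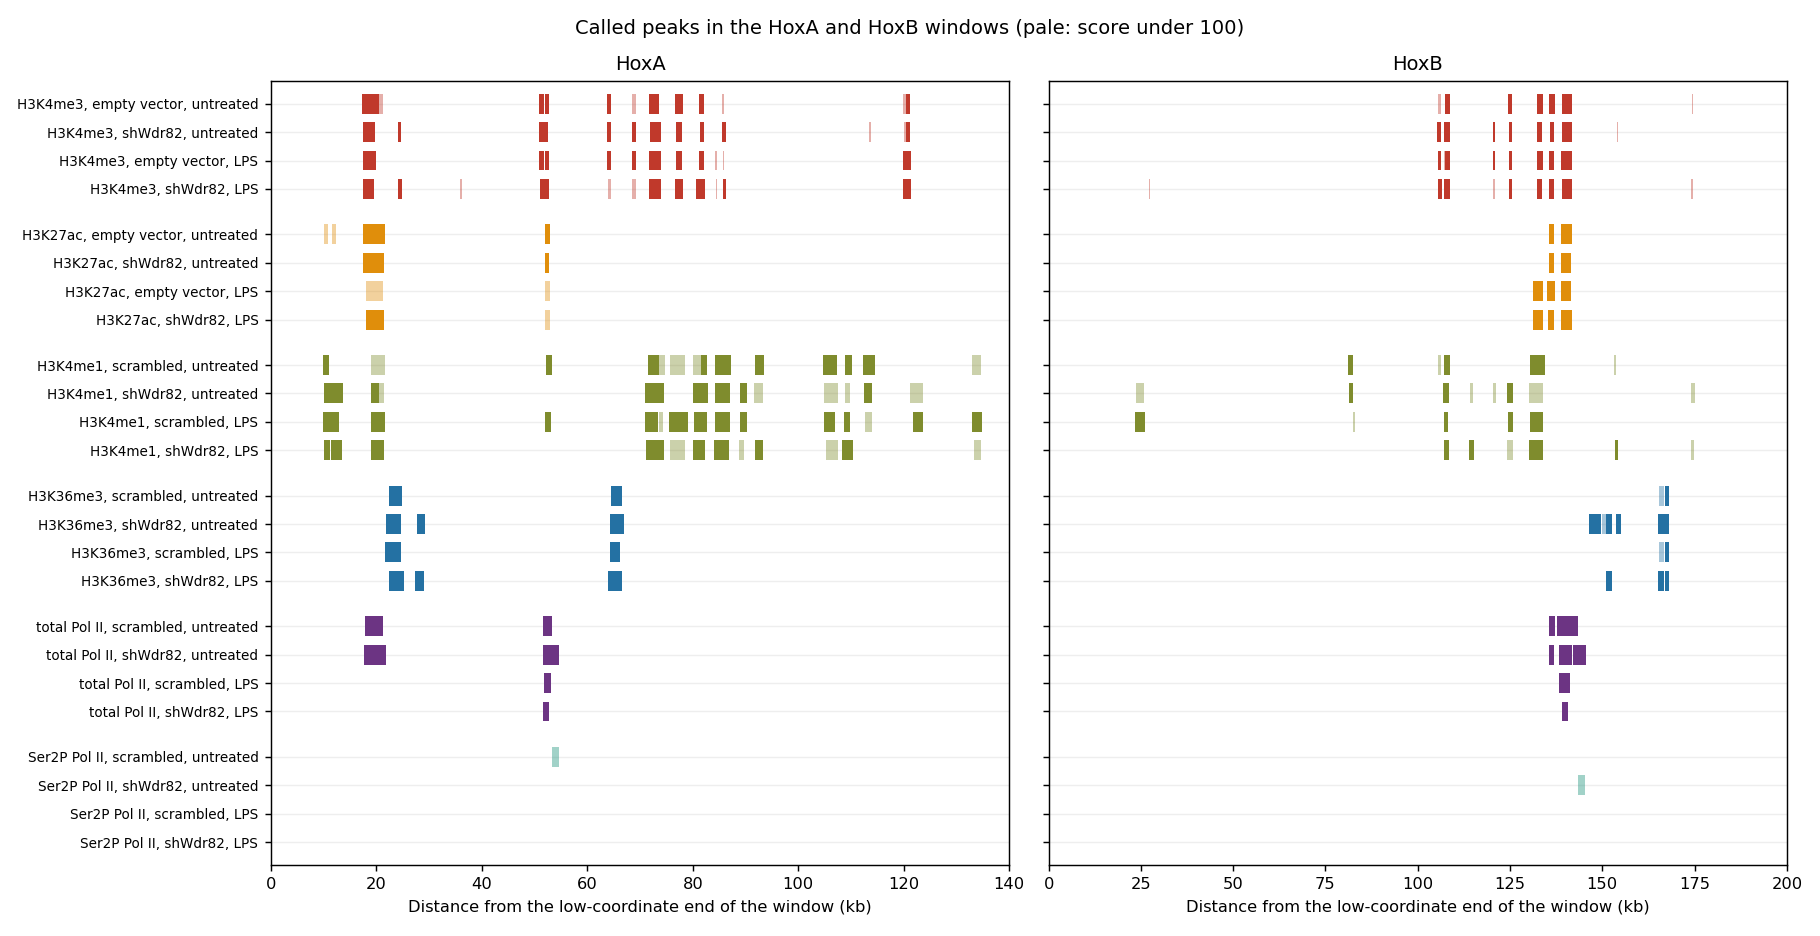
Called peaks in the HoxA (left) and HoxB (right) windows for the 24 libraries; the horizontal axis is the distance from the low-coordinate end of the window in kb, each bar is 1 peak, and pale bars have a score under 100. H3K4me3 lies at many places, while H3K27ac and total Pol II sit together at a few, and 4 H3K36me3 peaks of the shWdr82 untreated library stand between 146.3 and 155.0 kb in HoxB.

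The Hox H3K4me3 peaks were narrower and weaker than those of the genome. Their median width was 876 bp in empty vector untreated, 796 bp in shWdr82 untreated, 838 bp in empty vector LPS and 1005 bp in shWdr82 LPS cells, against 1526, 1187, 1470 and 1430 bp over all H3K4me3 peaks of the same libraries. Peaks with a score of at least 1000 made up 33.3%, 22.6%, 25.9% and 22.6% of the Hox peaks in that order, and 60.0%, 57.8%, 61.7% and 60.3% of all peaks.

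Most Hox H3K4me3 peaks overlapped no called H3K27ac or total Pol II peak. In the empty vector untreated library, 5 of 24 Hox peaks (20.8%, 95% exact binomial interval 7.13 to 42.2) overlapped an H3K27ac peak, against 70.9% of all H3K4me3 peaks. In shWdr82 untreated cells 4 of 31 did (12.9%, 3.63 to 29.8), against 68.8%. After LPS the shares were 18.5% (6.30 to 38.1) with the empty vector and 16.1% (5.45 to 33.7) with shWdr82, against 64.9% and 59.8%. In all 4 libraries the genome-wide share lay above the Hox interval, which covers counting error only. The Hox peaks were also weaker as a set, and no genome-wide share was computed for peaks of like score, so the part of score in these differences was not tested. Total Pol II from cells of the same treatment class, though with the scrambled control and another LPS time, was found at 25.0% (9.77 to 46.7) of control and 12.9% (3.63 to 29.8) of shWdr82 untreated Hox peaks, against 66.9% and 62.4% of all. After LPS it was at 11.1% (2.35 to 29.2) and 6.45% (0.791 to 21.4), against 53.3% and 51.1%. No Hox H3K4me3 peak overlapped a Ser2P peak in any library, where 9.85% to 12.3% of all H3K4me3 peaks did. With 24 to 31 peaks a library, a count of 0 allows a Ser2P share of up to 14.2%, so that difference was not detectable at this number of peaks. H3K4me1, the mark of enhancers and promoter flanks, was less set apart. Like those of total Pol II, the H3K4me1 and Ser2P libraries had the scrambled control and another LPS time than the H3K4me3 libraries. H3K4me1 overlapped 50.0% (29.1 to 70.9) of control and 41.9% (24.5 to 60.9) of shWdr82 untreated Hox peaks, against 72.4% and 60.6%. The shWdr82 interval held the genome-wide share. After LPS it was at 51.9% (31.9 to 71.3) and 38.7% (21.8 to 57.8), against 74.0% and 64.5%.

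**Figure D2:**
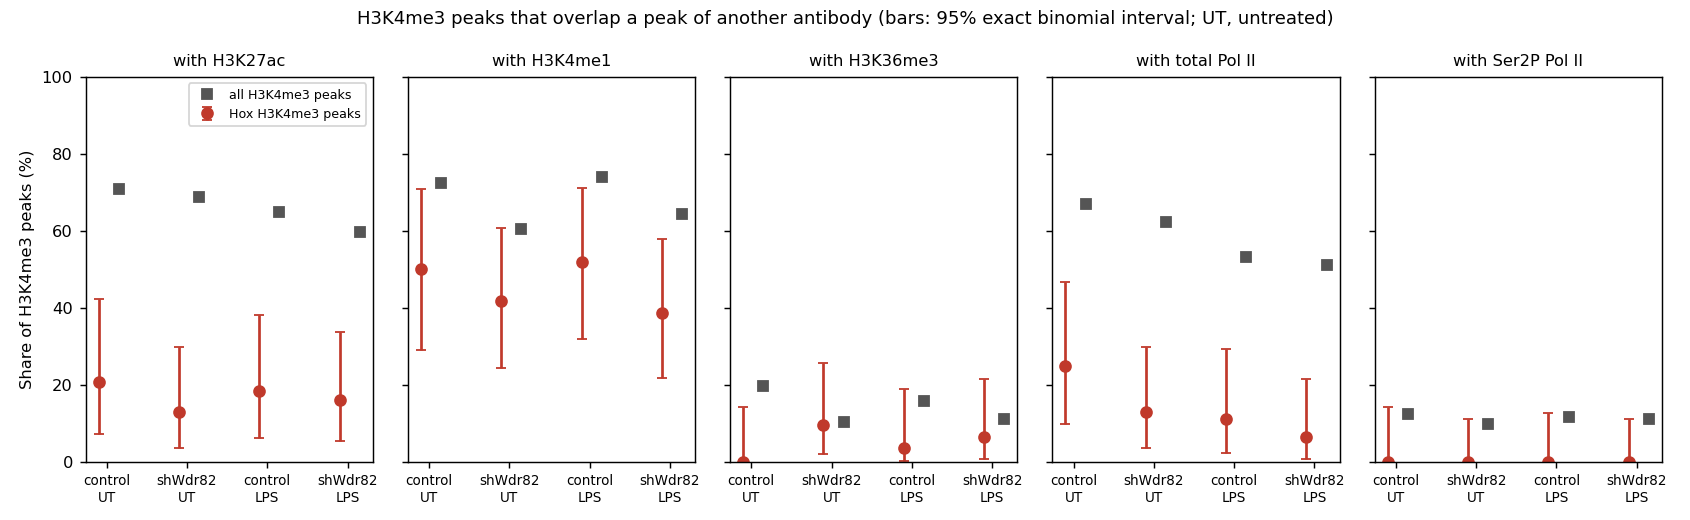
Share of H3K4me3 peaks (vertical axis, %) that overlap a peak of another antibody, for Hox peaks (circles, with 95% exact binomial intervals) and all peaks of the same library (squares), in the 4 groups of libraries. Hox H3K4me3 peaks carry H3K27ac at 12.9% to 20.8%, and all peaks at 59.8% to 70.9%. Apart from H3K27ac, the other antibodies had a different control and LPS time from H3K4me3.

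Of the 34 merged H3K4me3 regions, 28 had no H3K27ac peak in any library, and none of those 28 had a total Pol II peak in any library. The same counts were not made over all merged H3K4me3 regions, so they have no genome-wide share beside them. The 28 were mostly weak, with a median highest score of 192, against 2504 for the 6 regions with H3K27ac. Some of them were strong. The HoxA region at chromosome 6, 52161574 to 52164027, had scores of 1813, 3100, 1840 and 3100 in control untreated, shWdr82 untreated, control LPS and shWdr82 LPS cells. It had an H3K4me1 peak in all 4 libraries of that antibody and no H3K36me3 peak. A neighbour at 52170615 to 52172281 had scores of 1401, 2085, 1371 and 2702 in the same order, again with H3K4me1 in all 4 libraries. In HoxB a region on chromosome 11, 96147062 to 96148697, reached 607, 1187, 694 and 1349, and in HoxD the region at chromosome 2, 74509759 to 74511362, had 992, 831, 719 and 1570. Both carried H3K4me1 in all 4 libraries as well. Each of these 4 regions was called in every H3K4me3 library, and they are the only ones of the 28 with a score of 1000 or more in any library. H3K4me1 was found in 1 or more libraries at 17 of the 28, again without a genome-wide share for merged regions.

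HoxC and HoxD carried H3K4me3 alone or with H3K4me1. In HoxC, 2 regions were held by all 4 libraries. That of chromosome 15 from 102806932 to 102808318 scored 76, 143, 282 and 317 in control untreated, shWdr82 untreated, control LPS and shWdr82 LPS cells, and the region at 102829329 to 102830365 had 76, 346, 191 and 431. In HoxD, 3 regions were held by all 4 libraries. Beside the strong one they were 74506131 to 74506969, with scores of 62, 145, 194 and 113, and 74542836 to 74544205, with 57, 233, 94 and 208. Another 3, at 74493529 to 74494490, 74535726 to 74536488 and 74549821 to 74550358, were held by all but the empty vector untreated library. How many regions genome-wide are of that class was not computed. No H3K27ac, total Pol II or H3K36me3 peak was called in HoxC or HoxD in any of the 4 libraries of those antibodies. The 100 kb on either side of HoxD differed. H3K36me3 peaks covered 15.9%, 17.4%, 17.9% and 11.3% of those flanks in control untreated, shWdr82 untreated, control LPS and shWdr82 LPS cells, and H3K27ac peaks covered 1.60%, 1.64%, 2.10% and 2.05%. Total Pol II peaks covered 2.58%, 1.64%, 1.57% and 1.29% of the HoxD flanks. For these 3 antibodies the HoxD window was thus a gap between marked neighbours on both sides. HoxA had no H3K27ac, Pol II or H3K36me3 peak in its flanks in any library.

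**Figure D3:**
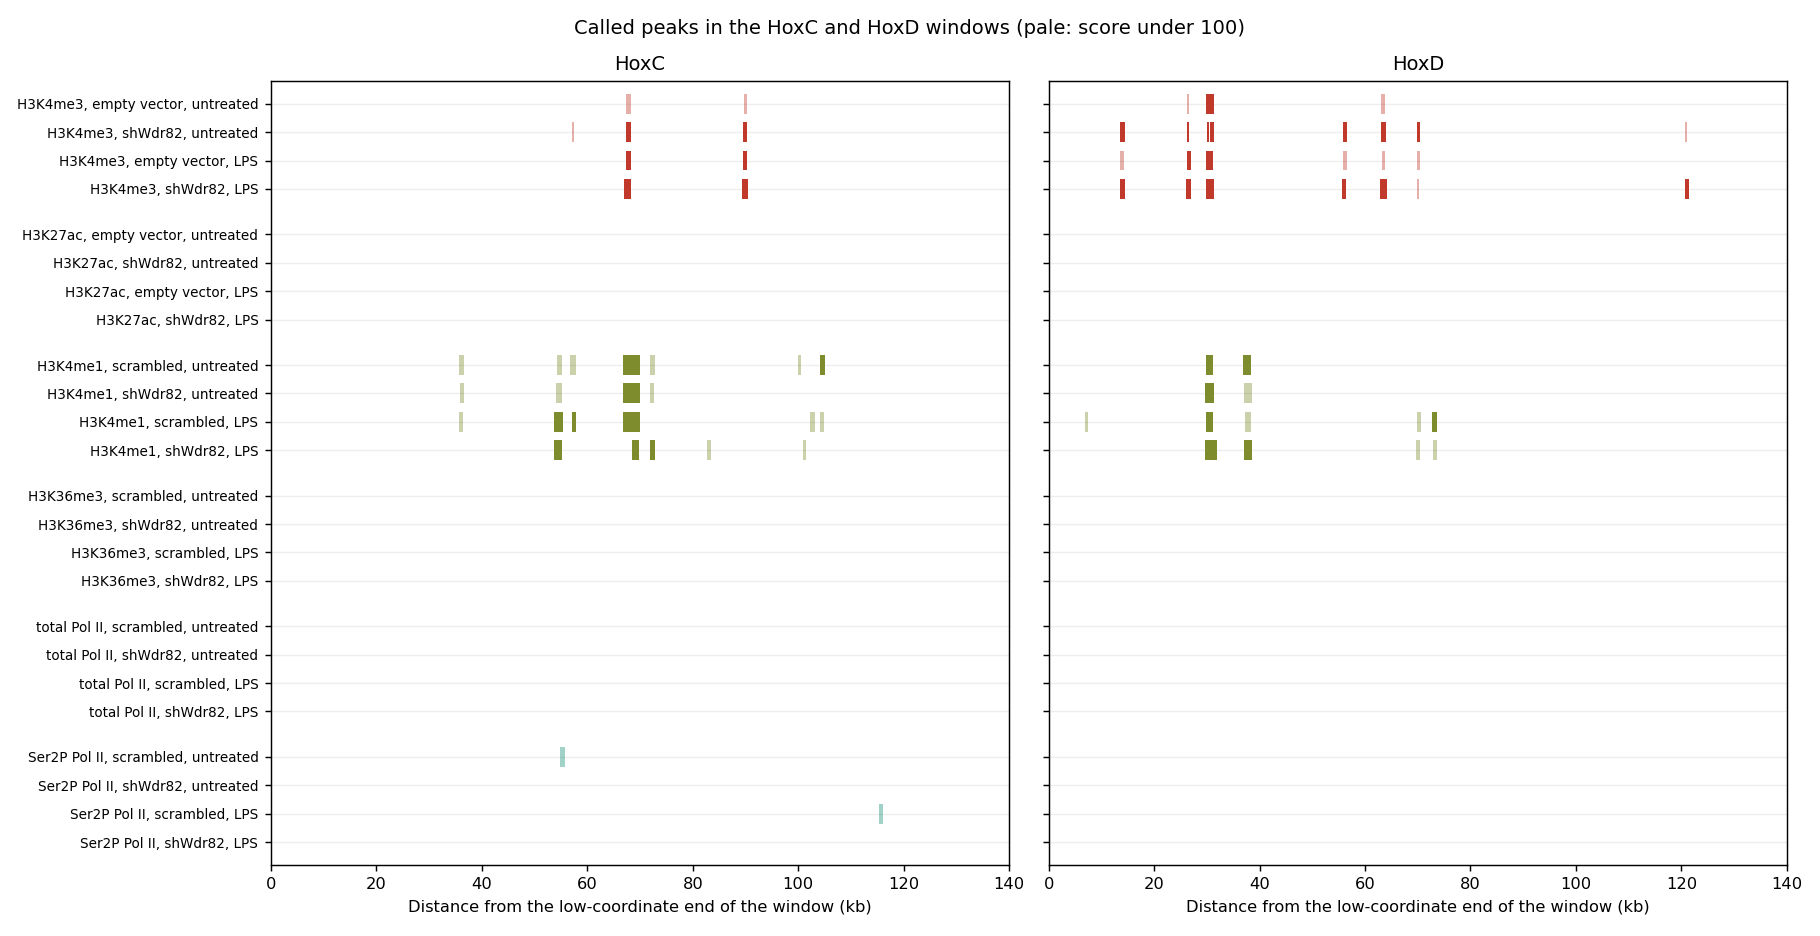
Called peaks in the HoxC (left) and HoxD (right) windows for the 24 libraries, drawn and shaded as in the map of HoxA and HoxB. The rows of H3K27ac, H3K36me3 and total Pol II are empty in both clusters, while 9 H3K4me3 peaks lie in HoxC and 24 in HoxD.

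H3K27ac, the acetylation of active promoters and enhancers, was confined to HoxA and HoxB among the 4 windows, with 20 peaks in 7 merged regions. Of these, 4 were held by all 4 libraries, against 44.0% of 39645 merged H3K27ac regions genome-wide. The strongest HoxA region, chromosome 6 from 52107424 to 52111607, had peaks of 4184 bp in empty vector untreated, 3940 bp in shWdr82 untreated, 3300 bp in empty vector LPS and 3416 bp in shWdr82 LPS cells. Its scores were 2086, 1392, 54 and 319. The other HoxA region, 52141878 to 52143002, had peaks of 960, 842, 1086 and 1078 bp, with scores of 172, 177, 99 and 90. Both regions overlapped H3K4me3 regions that were called in all 4 libraries, and lay in the part of the window toward the Hoxa2 end of the gene order. A further pair of weak peaks, 52100123 to 52100915 and 52101455 to 52102387, was called in the empty vector untreated library alone, a class that held 4.24% of regions genome-wide. Neither vector had an H3K27ac region of its own, called in both its libraries and in none of the other vector, where the genome-wide shares were 0.386% for shWdr82 and 0.457% for the empty vector.

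In HoxB the H3K27ac regions formed a group of 3 separated by 1014 and 1393 bp, toward the Hoxb1 end of the gene order. The strongest, chromosome 11 from 96178677 to 96181780, had peaks of 2757, 2861, 2959 and 3011 bp in empty vector untreated, shWdr82 untreated, empty vector LPS and shWdr82 LPS cells, with scores of 1899, 1540, 1172 and 775. The middle region, 96175055 to 96177283, had peaks of 1537, 1552, 2229 and 1721 bp. Both were present whatever the vector or treatment. The third region, 96171130 to 96174040, was called after LPS alone, with peaks of 2848 bp in empty vector and 2840 bp in shWdr82 cells and scores of 504 and 398. That site had H3K4me3 and H3K4me1 peaks in all 4 libraries of each of those antibodies, the untreated ones included, and no total Pol II peak in any. Regions held by both LPS libraries alone made up 12.4% of H3K27ac regions genome-wide and those held by both untreated libraries alone 15.8%, of which the Hox windows held 1 and 0 of 7. Neither H3K4me3 region at the strongest and the middle HoxB site overlapped an H3K4me1 peak in any of the 4 libraries.

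Total Pol II had 13 peaks in the 4 windows. They formed 4 regions, 2 of them held by all 4 libraries, against 28.8% of 37496 regions genome-wide. Each region overlapped 1 of these H3K27ac sites. In HoxB, 1 shWdr82 untreated peak, 96182126 to 96185495, lay wholly beyond the strongest H3K27ac site on its high-coordinate side. At the strongest HoxA site total Pol II was called in both untreated libraries, over 3539 bp in scrambled and 4037 bp in shWdr82 cells, and in neither LPS library. The middle HoxB site showed the same, with 1474 and 1264 bp in untreated cells and no peak after LPS. Regions held by both untreated libraries alone made up 17.4% genome-wide, while both LPS libraries alone held 5.04%, both shWdr82 libraries alone 0.989% and both scrambled libraries alone 1.29%, each with none in the Hox windows. The 2 regions held by all 4 libraries were also called over less DNA after 45 min of LPS. At the second HoxA site, Pol II peaks spanned 1666 bp in scrambled and 3089 bp in shWdr82 untreated cells, and 1265 and 1162 bp after LPS. In the region at the strongest HoxB site they covered 5783 and 6800 bp untreated, and 2884 and 1690 bp after LPS. The 6800 bp include the 3370 bp of the peak beyond that site. Over the 4 windows this gave 12.5 kb in scrambled and 15.2 kb in shWdr82 untreated cells, against 4.1 and 2.9 kb after LPS. The whole lists moved the same way to a smaller degree, from 111.9 to 89.2 Mb in scrambled and from 106.1 to 94.2 Mb in shWdr82 cells, and the part of this in the Hox values was not tested.

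**Figure D4:**
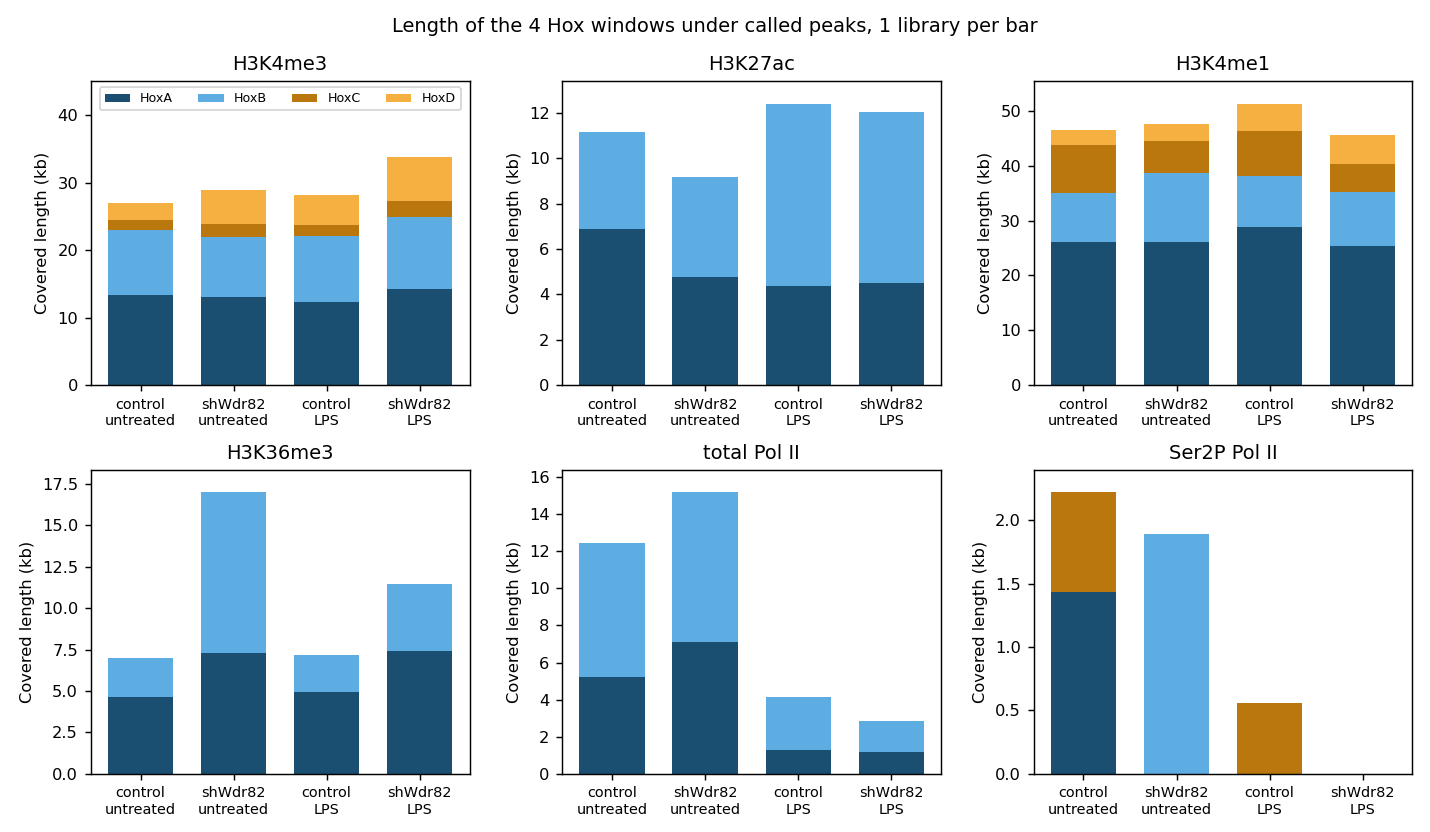
Length of the 4 Hox windows under called peaks (vertical axis, kb, its scale set per antibody), 1 library per bar, stacked by cluster. H3K36me3 covers 17.0 kb in shWdr82 and 7.0 kb in scrambled untreated cells, and total Pol II covers 12.5 and 15.2 kb in untreated and 4.1 and 2.9 kb in LPS cells.

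H3K36me3, which is laid down behind elongating Pol II, was called over more of HoxA and HoxB in shWdr82 than in scrambled cells. It covered 7.0 kb of the windows in scrambled and 17.0 kb in shWdr82 untreated cells, and 7.2 and 11.5 kb after LPS. The difference was 10.0 kb in untreated and 4.3 kb in LPS cells, and it had the same sign in HoxA and HoxB in both treatments. In untreated cells the whole H3K36me3 list was not longer with shWdr82, as it had 34042 peaks over 234.4 Mb with shWdr82 and 37166 peaks over 238.6 Mb with the scrambled hairpin. After LPS it had 38062 peaks over 233.9 Mb and 33445 over 221.0 Mb. The Hox peaks formed 8 regions, 3 of them held by all 4 libraries, where 61.6% of 34434 regions were genome-wide. Another 2 were held by both shWdr82 libraries alone, against 4.51% genome-wide, and 3 by the shWdr82 untreated library alone, against 3.65%. None was held by both scrambled libraries alone (2.74%), both LPS libraries alone (0.781%) or both untreated libraries alone (1.57%). The number of Hox regions is small, and those of HoxB are neighbours rather than separate cases.

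The added HoxB stretch lay beyond the strongest HoxB site on its high-coordinate side, which is downstream along genes of the plus strand. In shWdr82 untreated cells 4 H3K36me3 peaks, from 96186319 to 96194970, covered 6961 bp of a span of 8652 bp, with scores of 358, 67, 317 and 128. Scrambled untreated and scrambled LPS cells had no H3K36me3 peak there. In shWdr82 LPS cells 1 peak remained, 96191032 to 96192495, with a score of 203. All 4 libraries then had H3K36me3 at 96205207 to 96208099, over 2328 bp in scrambled untreated, 2779 bp in shWdr82 untreated, 2280 bp in scrambled LPS and 2627 bp in shWdr82 LPS cells, wider in shWdr82 than in scrambled cells in both treatments.

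On the high-coordinate side of the strongest HoxB site, total Pol II reached further in shWdr82 than in scrambled untreated cells, but not after LPS. Each antibody had its own libraries, so whether Pol II or Ser2P goes with the H3K36me3 there was not tested. The last total Pol II peak ended at 96185495 in shWdr82 untreated cells, 2129 bp beyond its end at 96183366 in scrambled untreated cells and 823 bp short of the first H3K36me3 peak. Within that last Pol II peak lay the only Ser2P peak of HoxB, 96183367 to 96185255, called in shWdr82 untreated cells with a score of 54, just above the lowest score in the lists. After LPS the Pol II peak ended at 96181179 in scrambled and 96180654 in shWdr82 cells, inside the H3K27ac region, and no Ser2P peak was called. Read over the 25 kb on the high-coordinate side of the H3K27ac region, a window set after these lists had been seen, total Pol II covered 1586 bp in scrambled and 3370 bp in shWdr82 untreated cells, and H3K36me3 covered 1180 and 8535 bp. After LPS, H3K36me3 covered 1163 and 2948 bp there. On the low-coordinate side no H3K36me3 or Ser2P peak was called within 25 kb in any library. ChIP-seq carries no strand, so which strand was transcribed is not known.

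**Figure D5:**
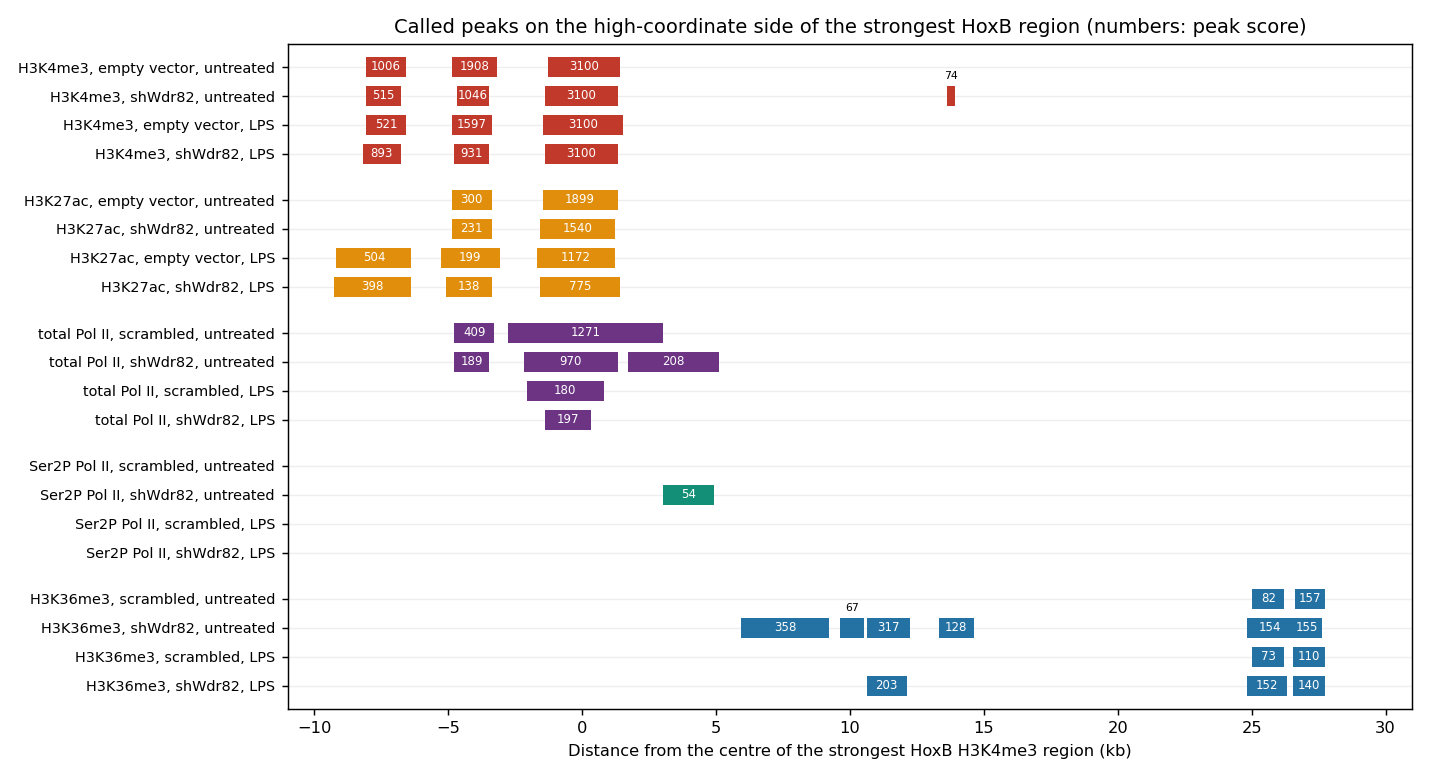
Called peaks around the strongest HoxB H3K4me3 region for 5 antibodies, 4 libraries each; the horizontal axis is the distance from the centre of that region in kb and the numbers are peak scores. In shWdr82 untreated cells total Pol II, a Ser2P peak with a score of 54 and 4 H3K36me3 peaks follow each other on the high-coordinate side, where scrambled cells have no H3K36me3 until the last stretch.

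HoxA showed a smaller addition of the same mark, also on the high-coordinate side of its H3K27ac sites. The matched HoxA genes are on the minus strand, so that side is upstream along them, unlike in HoxB. An H3K36me3 region held by all 4 libraries, 52111674 to 52115187, began 66 bp beyond the strongest HoxA H3K27ac region and had peaks of 2535, 2891, 2997 and 2931 bp in scrambled untreated, shWdr82 untreated, scrambled LPS and shWdr82 LPS cells. At 2100 bp further on, the region 52117288 to 52119215 was held by both shWdr82 libraries alone, with peaks of 1581 bp untreated and 1777 bp after LPS and scores of 155 and 113. The third region, 52153925 to 52157017, beyond the second H3K27ac site, was called over 2112, 2791, 1916 and 2686 bp, wider in shWdr82 than in scrambled cells in both treatments. Total Pol II at that second site reached 52144595 in shWdr82 and 52143166 in scrambled untreated cells, but here the Ser2P peak, 52143249 to 52144684 with a score of 53, was called in scrambled untreated cells alone. That peak and the HoxB Ser2P peak, with a score of 54, each came from a single library and lay near the lowest score. Whether Ser2P differed between the vectors, or between HoxA and HoxB, was not tested. An H3K4me3 region inside the first H3K36me3 region, 52114027 to 52114832, was also held by both shWdr82 libraries alone, with scores of 131 and 129.

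Ser2P peaks were otherwise rare in the clusters. The 4 in all were each held by a single library, with scores of 53 to 56. Apart from those of HoxA and HoxB, HoxC had 1 in scrambled untreated cells at 102794874 to 102795659 and 1 in scrambled LPS cells at 102855446 to 102856004. Genome-wide, 17.9% of 30111 Ser2P regions were held by the shWdr82 untreated library alone, 16.6% by the scrambled untreated and 11.8% by the scrambled LPS library alone. Regions held by all 4 libraries made up 16.2%, by both shWdr82 libraries alone 1.43%, by both scrambled libraries alone 1.30%, by both LPS libraries alone 4.32% and by both untreated libraries alone 5.01%, and the Hox windows had none of any of these.

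Between shWdr82 and empty vector cells, H3K4me3 differed by a few calls in the clusters, whose number depended on the weak peaks. Hox H3K4me3 peaks numbered 31 in shWdr82 and 24 in empty vector untreated cells, and 31 and 27 after LPS, while they covered 29.0 and 27.0 kb untreated and 33.8 and 28.3 kb after LPS. HoxD had 3 H3K4me3 peaks in empty vector and 8 in shWdr82 untreated cells, and 6 and 7 after LPS, while HoxA had 12 and 12 untreated and 11 and 13 after LPS. A call in both shWdr82 libraries and no other was found for 2 of 34 regions, the HoxA one above and 74600706 to 74601355 in HoxD with scores of 64 and 156, against 2.68% genome-wide. None was held by both empty vector libraries alone (1.41%) or both untreated libraries alone (1.78%), and 1, at 52174248 to 52174632 in HoxA, by both LPS libraries alone (0.555%). Of the 6 regions held by 1 library, 3 were of shWdr82 untreated, 1 of empty vector untreated and 2 of shWdr82 LPS cells, against 4.23%, 4.31% and 4.24% genome-wide. All 4 regions held by 3 libraries lacked a peak in empty vector untreated cells. The genome-wide share of such regions was not computed, so this count is not read as particular to the clusters. The whole H3K4me3 lists also held more peaks with shWdr82, 20490 against 18951 untreated and 19096 against 17986 after LPS, over 26.8 against 32.1 Mb and 29.6 against 29.5 Mb. For peaks with a score of at least 100, the regions called in both shWdr82 libraries and no other numbered 5, and the untreated difference in covered length was 6.8 kb in place of 2.0 kb. With so few regions, the Hox counts were not told apart from the genome-wide shares.

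H3K4me1 was the mark with the widest reach in HoxA. It covered 18.7%, 18.6%, 20.5% and 18.1% of the HoxA window in scrambled untreated, shWdr82 untreated, scrambled LPS and shWdr82 LPS cells, against 4.47% to 6.33% of HoxB, 3.69% to 6.23% of HoxC and 2.02% to 3.80% of HoxD. HoxA flanks were covered to 5.14% to 8.22%. Its 114 peaks formed 40 regions, 15 in HoxA, 10 in HoxB, 10 in HoxC and 5 in HoxD, and 13 were held by all 4 libraries, against 52.8% of 76449 genome-wide. The highest H3K4me1 score of the clusters was in HoxC, at 102806651 to 102810036, with 444, 520, 697 and 307 in that order of libraries, at the site of a weak H3K4me3 region. The strongest in HoxB, 96146859 to 96148668, had 451, 335, 281 and 265, in HoxA, 52174025 to 52177151, 140, 373, 244 and 338, and in HoxD, 74509685 to 74511969, 194, 249, 370 and 292. Peaks of the HoxC region 102806651 to 102810036 spanned 3064, 3070 and 3386 bp in the first 3 of these libraries and 1279 bp in shWdr82 LPS cells.

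A few H3K4me1 regions were called with 1 vector alone, too few to be told apart from the genome-wide shares. Both scrambled libraries alone held 3 of 40, against 4.63% genome-wide, and both shWdr82 libraries alone held 2, against 3.29%. The first of the 3, chromosome 6 from 52142001 to 52143224, lay at the second HoxA site with H3K27ac, and its peaks of 1098 bp untreated and 1089 bp after LPS had scores of 161 and 113. The other 2 were in HoxC, at 102796698 to 102797930 and 102844106 to 102845011. The regions of shWdr82 cells were both in HoxB, at 96153908 to 96155302 and 96213965 to 96215013. Both LPS libraries alone held 2 regions, at 74549701 to 74550613 and 74552726 to 74553637 in HoxD, against 2.17%, and both untreated libraries alone held none (1.23%). Crossed calls follow neither vector nor treatment. Scrambled untreated with shWdr82 LPS held 1 (1.39% genome-wide), and scrambled LPS with shWdr82 untreated held 2 (1.49%). Over the 4 windows H3K4me1 covered 46.6 kb in scrambled and 47.7 kb in shWdr82 untreated cells, and 51.4 and 45.7 kb after LPS. For peaks with a score of at least 100, shWdr82 minus scrambled was -4.3 kb untreated and -10.7 kb after LPS. LPS minus untreated was then 13.4 kb with the scrambled hairpin and 6.9 kb with shWdr82. The direction thus depended on the weak peaks for shWdr82 minus scrambled untreated and for LPS minus untreated with shWdr82. The other H3K4me1 differences kept their sign and grew.

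Covered length was also compared in 10 kb bins of the whole genome, where a bin was called when covered length plus 500 bp differed at least 2-fold in the same direction in both pairs of libraries. For shWdr82 against control, 1 of 5 Hox bins with H3K36me3 was called, the HoxB bin from 96190001 to 96200000, with 0 bp in both scrambled libraries and 3652 and 1464 bp in shWdr82 untreated and LPS cells. Bins with at least 1000 bp covered in 1 or more libraries were counted, and genome-wide 6.35% of 40324 were called for H3K36me3 in either direction. For H3K4me1, 2 of 22 were called, 1 in each direction, against 6.47%. No Hox bin was called for H3K4me3 (1.91% genome-wide), H3K27ac (0.846%), total Pol II (3.79%) or Ser2P (6.04%). For LPS against untreated, 3 of 5 Hox bins with total Pol II were called, all lower after LPS. Genome-wide 23.4% were called lower and 32.8% in either direction. Of the 3, 2 are neighbouring HoxA bins that share the single Pol II region 52107740 to 52111776, so they are 1 site. For H3K4me1 1 of 22 was called, in HoxD and higher, against 2.37%. None was called for H3K4me3 (0.683%), H3K27ac (33.1%), H3K36me3 (1.97%) or Ser2P (22.4%). All of these numbers of Hox bins are small.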

How the data were processed

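Each library's peak list was used as deposited, with chromosome, start, end, peak name and a score per peak. The score is the authors' value from the peak caller, and the start and end positions are other values that the authors' calling set in each library. Bowtie 0.12.7, MACS 1.4 and the mm9 build are named per the submitters' processing notes, without their settings. For read depth, the input library and filters, the sources used here state nothing. A longer list or wider peak can come from depth or enrichment as well as from the cells, and an uncalled region is not free of signal. Python 3.11.15 with pandas 2.3.3 read the lists. Covered length is peak length within a window. Peaks of the 4 libraries of an antibody were merged where they shared at least 1 bp, and each region was classed by the libraries holding it. Merging, classes, overlaps and bin sums were tested on simulated peaks. Intervals are exact (Clopper-Pearson) binomial at the 95% level and cover counting error only. Groups followed the sample labels. Regions were named from the 5 or fewer with the highest score per antibody and cluster, together with every region held by 1 vector or 1 treatment alone. Outside this rule, HoxA 52209817 to 52211412 and HoxD 74549821 to 74550358 were named after their values were seen, and not every region the rule allows is described. The clusters, lists and comparisons were chosen with earlier results of these data known. Positions are on mm9, counted from 1, and promoter sequences and gene order are from RefSeq on GRCm38.p6. No coordinate was converted. Alternatives were a score of at least 100, lists cut to equal length by score, whole peaks, peak midpoints, merging across gaps of up to 1000 bp, and an overlap of 50%.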

Additional observations from a re-analysis of the deposited data

Results flagged for a closer look

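In 6 of 24 pairs of antibody and cluster, the difference in covered length between shWdr82 and control cells had opposite signs in untreated and LPS cells. Some of the 24 could not show opposite signs. H3K27ac, H3K36me3 and total Pol II had no peak in HoxC or HoxD, and Ser2P had none in HoxD. Ser2P also had none in HoxA or HoxB after LPS. With 1 library in each group, the difference between treatments was not tested. For total Pol II, shWdr82 minus scrambled was 1921 bp untreated and -103 bp after LPS in HoxA, and 807 bp and -1194 bp in HoxB. For H3K27ac, shWdr82 minus empty vector was -2088 bp and 108 bp in HoxA, where a pair of weak peaks in the empty vector untreated library made up most of the first value, and 119 bp and -464 bp in HoxB. For H3K4me3 it was -281 bp and 1995 bp in HoxA, and -750 bp and 761 bp in HoxB.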

How the results depend on the processing

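The H3K36me3 differences in covered length between shWdr82 and scrambled cells kept their sign and stayed within 1.5 times of their value under every alternative run. Only the score of at least 100 changed them, to 10.4 kb untreated and 5.5 kb after LPS. Those of total Pol II were the same under every alternative in all 4 contrasts. The lowest Hox Pol II score was 180 and no Hox peak crossed a window edge. The score limit and the whole peaks thus could not change the Pol II values. Among 24 differences of covered length, 50 of 72 alternative values stayed within 1.5 times with the same sign, 18 moved further and 4 changed sign. The 50 include the whole-peak value of all 24 differences. That setting could not change any of them, since no Hox peak crossed a window edge. With a score of at least 100, the sign turned for H3K27ac between shWdr82 and empty vector LPS cells (3.0 kb), H3K27ac between LPS and untreated empty vector cells (-1.4 kb), H3K4me1 between shWdr82 and scrambled untreated cells (-4.3 kb) and H3K4me1 between LPS and untreated shWdr82 cells (6.9 kb). At that score H3K4me3 gave 6.8 kb for shWdr82 minus empty vector untreated, 4.4 kb for LPS minus untreated with the empty vector and 2.6 kb with shWdr82. H3K27ac gave -0.2 kb for shWdr82 minus empty vector untreated and 1.8 kb for LPS minus untreated with shWdr82. H3K4me1 gave -10.7 kb for shWdr82 minus scrambled after LPS and 13.4 kb for LPS minus untreated with the scrambled hairpin. All Ser2P differences became 0.0 kb, since no Hox Ser2P peak reaches that score. With lists cut to equal length by score, LPS minus untreated gave 2.8 kb for H3K4me3 and 2.2 kb for H3K27ac with the empty vector, 1.7 kb for H3K4me1 with the scrambled hairpin and 0.0 kb for Ser2P with shWdr82. In the same setting shWdr82 minus control gave -1.0 kb for H3K27ac untreated, -2.7 kb for H3K4me1 after LPS and -2.2 kb for Ser2P untreated.

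Of the counts of merged Hox regions, 61 of 72 alternative values stayed within 1.5 times, most of them counts of 0 that stayed at 0. With a score of at least 100, H3K4me3 regions held by shWdr82 alone numbered 5 and those held by LPS alone 0, H3K27ac regions of untreated cells alone 1, and H3K4me1 regions of shWdr82 alone 0, LPS alone 1 and untreated alone 2. With lists of equal length there were 1 H3K4me3 region of shWdr82 alone, 1 H3K4me1 region of LPS alone and 1 of untreated cells alone. Merging across gaps of up to 1000 bp left 0 H3K4me3 regions of LPS alone and 1 total Pol II region of untreated cells alone. The cause was not tested for any of these. The numbers of Hox peaks were the same when peak midpoints decided, which was fixed in advance because no Hox peak crossed a window edge. Of the 40 alternative shares of H3K4me3 peaks, 39 lay within the interval of the value reported. The exception was H3K36me3 in control LPS cells, at 0 with an overlap of at least 50%. No paired analysis was possible because each group has 1 library and the labels give no replicate numbers. A fit of the vector with treatment as the block, which would use the treatments as replicates, was not run. The number of peaks a library holds in the clusters limits the precision.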
